A study of Saccharomyces cerevisiae with 10 samples.

Results

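Messenger RNA of the yeast strain PMA1e MKT1e was compared with that of the strain MDS3e MKT1e, both haploid Saccharomyces cerevisiae. The 4 arrays compared were those whose genotype label named either strain, 2 for each, out of 10 arrays in the series. The suffix e marks an evolved allele of the named gene. PMA1e MKT1e carried evolved alleles of PMA1 and MKT1, and MDS3e MKT1e carried evolved alleles of MDS3 and MKT1. The evolved MKT1 allele was therefore common to both, and the strains differed by PMA1e in place of MDS3e. The other 6 arrays held MKT1e, MDS3e and the Ancestral strain without evolved alleles, 2 of each. All strains had the genetic background Sce3044 and no further evolved allele. Cells grew overnight in rich YPD medium and then in a defined medium low in glucose (0.25% dextrose, with uracil and no amino acids), and dividing cultures were collected after some 17 h, when the optical density reached about 0.2. Replicates are labelled as biological, with n = 2 per genotype. Neither the sequence changes of the evolved alleles nor the number of independent clones per genotype is stated in the labels. No strain with PMA1e alone was analysed here, so a property of PMA1e cannot be told apart from a property of PMA1e together with MKT1e.

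PMA1 encodes the proton pump of the plasma membrane, an essential ATPase that exports protons, sets the membrane potential on which nutrient uptake depends and is switched on by glucose. MDS3 encodes a protein of nutrient and pH signalling that acts with its paralog Pmd1, and MKT1 encodes a protein that works with Pbp1 on the fate of particular messenger RNAs. In dividing yeast the protein kinase A and TOR pathways favour ribosome production and hold back the stress genes driven by Msn2 and Msn4. The PHO pathway turns on phosphate transporters and secreted phosphatases through the transcription factor Pho4 when the kinase Pho80-Pho85 is inhibited by Pho81.

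The arrays gave 1 normalised intensity per probe set, and 5449 S. cerevisiae genes were measured. Intensity values were used as log2 of the value plus 16, so a difference of 1 stands for a 2-fold difference of the value plus 16 and understates changes of dim genes. Between 5331 and 5355 genes per array exceeded an intensity of 2.33, the background limit set by probe sets of another species. Replicates correlated across genes with Pearson's r of 0.9981 in PMA1e MKT1e and 0.9975 in MDS3e MKT1e, and the median SD between replicates was 0.037 and 0.048. Genes are not independent replicates, and n = 2 arrays per genotype limits the precision. The labels give no mating type, and markers of both types were read. STE2, the a-specific pheromone receptor, had intensities of 1745 and 1666 in PMA1e MKT1e, against 1629 and 1558 in MDS3e MKT1e. The alpha-specific pheromone gene MF(ALPHA)1 had 4.48 and 4.42 in PMA1e MKT1e, against 0.263 and 3.15 in MDS3e MKT1e, near the background limit. STE3, the alpha-specific receptor, had 29.6 and 31.9 in PMA1e MKT1e, against 25.3 and 24.4 in MDS3e MKT1e. SAG1, the alpha-agglutinin, had 87.9 and 83.9 in PMA1e MKT1e, against 70.1 and 79.9 in MDS3e MKT1e, well above that limit. The a-specific pheromone genes MFA1 and MFA2 were far brighter. MFA1 had 1167 and 1157 in PMA1e MKT1e, against 1155 and 947 in MDS3e MKT1e. MFA2 had 1636 and 1556 in PMA1e MKT1e, against 1410 and 1364 in MDS3e MKT1e. The bright markers were thus those of mating type a in both strains, and the alpha-specific ones read far lower.

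Differences are given as PMA1e MKT1e minus MDS3e MKT1e on the log2 scale with the standard error (SE) of limma's fit over all 10 arrays, and p-values are limma's, two-sided and adjusted by Benjamini-Hochberg over all 5449 genes. At an adjusted p under 0.05, 31.4% of genes differed between the strains, 1709 in number. PMA1e MKT1e was higher in 831 genes (15.3%) and lower in 878 genes (16.1%). The counts of list members given below are to be read against these shares of all genes. Differences were mostly small, since the median over all genes was -0.01 and the value plus 16 was at least 2 times higher in 44 genes and at least 2 times lower in 14. The largest rises were in genes of the general stress response and the largest falls in genes of the PHO pathway. In bulk cultures a change in every cell and a change in part of the cells cannot be told apart. Leaving out 1 array of either strain lowered the count of called genes. It was 970 without PMA1e MKT1e replicate 1, 801 without PMA1e MKT1e replicate 2, 1165 without MDS3e MKT1e replicate 1 and 928 without MDS3e MKT1e replicate 2. The shift followed brightness, with a median of 0.14 and 211 genes higher against 23 lower in the brightest 10% of genes. The medians of the other groups of that size ran from -0.06 to 0.03.

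**Figure D1:**
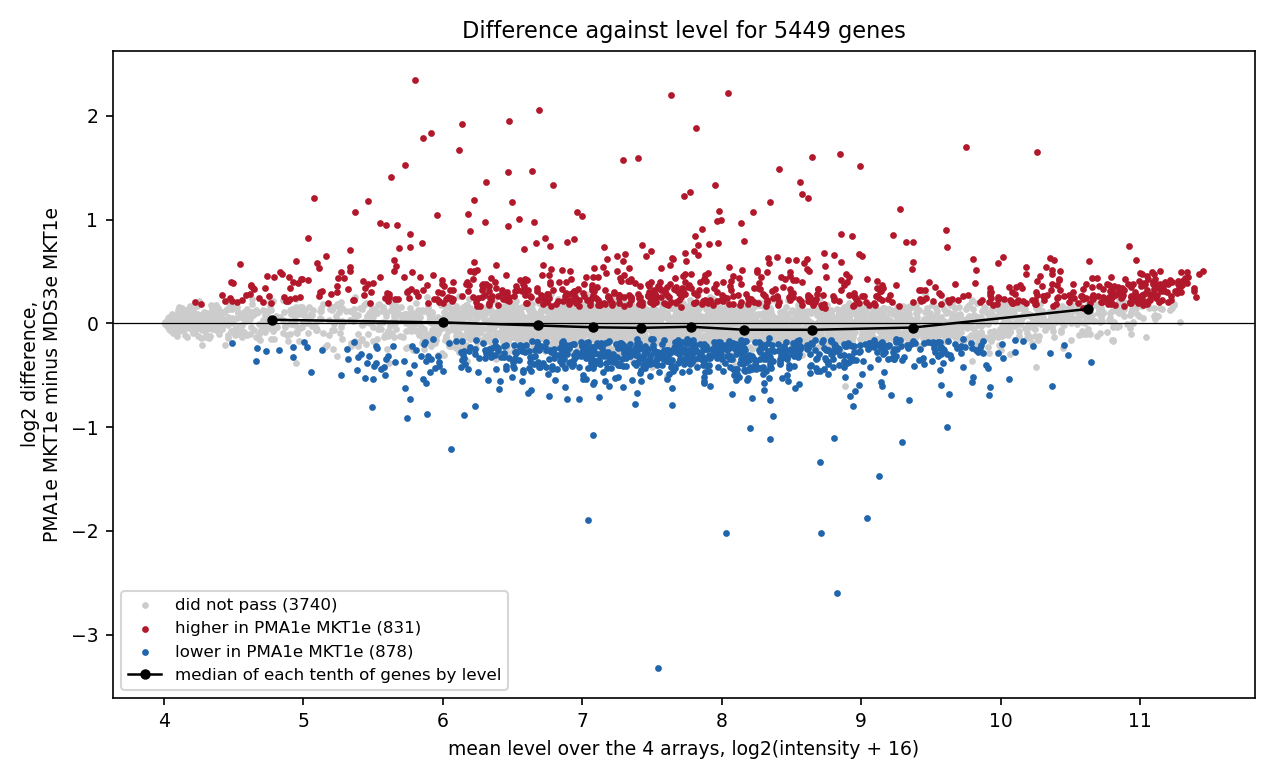
Log2 difference, PMA1e MKT1e minus MDS3e MKT1e (y axis), against mean log2(intensity + 16) over the 4 arrays (x axis), with 1 point per gene and a black line through the median of each 10% of genes by level. The 831 higher and 878 lower genes lie at all levels, the farthest points reach 2.34 and -3.33, and the line turns up to 0.14 in the brightest 10%.

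PMA1 itself read higher in the strain with its evolved allele than in MDS3e MKT1e. Its intensities were 2223 and 2266 in PMA1e MKT1e, against 1712 and 1723 in MDS3e MKT1e, and it rose by 0.38 ± 0.05 (adjusted p = 5.0e-04). The arrays of the strains did not overlap, which held for 3836 of all 5449 genes. PMA1 was among the brightest 10% of genes, whose median difference was 0.14. Its call was kept under quantile normalization and cyclic loess. The MKT1e arrays, which carry no evolved PMA1, read 2309 and 2305, in the range of the Ancestral arrays at 2283 and 2364. The low readings thus belonged to MDS3e MKT1e and to MDS3e, at 1761 and 1838. MDS3 had intensities of 234 and 243 in PMA1e MKT1e, against 215 and 228 in MDS3e MKT1e and a difference of 0.10 ± 0.06 (adjusted p = 0.22). MKT1, evolved in both strains, had intensities of 361 and 371 in PMA1e MKT1e, against 430.0 and 433 in MDS3e MKT1e and a difference of -0.23 ± 0.11 (adjusted p = 0.13), so neither passed the test. MKT1 did pass in the fit of the 4 arrays alone and without either Ancestral replicate, and MDS3 under cyclic loess. A change of an allele's sequence under a probe and a change in the amount of its RNA cannot be told apart on these arrays.

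Of 15 measured genes for the pump and its regulators, 7 rose and 2 fell in PMA1e MKT1e, with a median difference of 0.12 against -0.01 over all genes. YRO2, a plasma membrane protein of the same family as Hsp30 and Mrh1, had the largest rise of the list. Its intensities were 475 and 643 in PMA1e MKT1e, against 116 and 97.9 in MDS3e MKT1e, and it rose by 2.22 ± 0.12 (adjusted p = 1.2e-06). HSP30, a stress-induced membrane protein that restrains the pump, read 67.9 and 61.3 in PMA1e MKT1e, against 14.1 and 14.6 in MDS3e MKT1e and rose by 1.41 ± 0.07 (adjusted p = 8.6e-07). Both genes were several times brighter on either PMA1e MKT1e array than on either MDS3e MKT1e array. MRH1, the remaining member of that family, read 1808 and 1911 in PMA1e MKT1e, against 1425 and 1319.7 in MDS3e MKT1e, a rise of 0.43 ± 0.07. PMA2, the paralog of PMA1 with low expression, read 27.9 and 26 in PMA1e MKT1e, against 16 and 19 in MDS3e MKT1e and rose by 0.36 ± 0.07. YCK2, a casein kinase of the plasma membrane, fell by 0.32 ± 0.05, and AST1, which helps deliver the pump to the surface, fell by 0.31 ± 0.08, a call lost without replicate 2 of either strain. The pump's small regulators PMP1 and PMP2 and the activating kinase gene PTK2 differed by 0.04, -0.10 and 0.12 and did not pass, while HRK1, another kinase that acts on the pump, rose by 0.20 ± 0.06, a call lost without either PMA1e MKT1e replicate or MDS3e MKT1e replicate 2. HRK1, AST1, PMP2 and PTK2 were named after their values were seen.

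Genes of phosphate acquisition were far lower in PMA1e MKT1e than in MDS3e MKT1e. Of 14 transporter, phosphatase and related genes, 8 fell and 2 rose, with a median of -0.28. PHO89, the sodium-coupled high-affinity phosphate transporter, showed the largest difference of any gene. Its intensities were 42.3 and 43.5 in PMA1e MKT1e, against 563 and 587 in MDS3e MKT1e, a ratio of 13.4 between the strains' means, and it fell by 3.33 ± 0.10 (adjusted p = 4.6e-08). PHO5, the main secreted acid phosphatase, read 102 and 126 in PMA1e MKT1e, against 507 and 515 in MDS3e MKT1e and fell by 2.02 ± 0.08 (adjusted p = 2.0e-07). PHO11, another acid phosphatase whose probe set may also read its near-identical copy PHO12, had 148 and 192 in PMA1e MKT1e, against 1020.2 and 1196 in MDS3e MKT1e and fell by 2.60 ± 0.15. In these 3 genes both PMA1e MKT1e arrays lay far below both MDS3e MKT1e arrays. The MDS3e arrays were also high in each, while MKT1e and Ancestral read nearer to PMA1e MKT1e. PHO89 read 393 and 402 in MDS3e, against 49.9 and 34.5 in Ancestral. PHO5 read 274 and 263 in MDS3e, against 82.7 and 80.3 in Ancestral. SPL2, which restrains low-affinity phosphate uptake when phosphate is short, read 215 and 313 in PMA1e MKT1e, against 946 and 1041 in MDS3e MKT1e and fell by 1.87 ± 0.14. PHM6, a phosphate-regulated gene of unknown function, read 47.8 and 57 in PMA1e MKT1e, against 223 and 254 in MDS3e MKT1e and fell by 1.90 ± 0.11. PHO84, the proton-coupled high-affinity transporter, read 1146 and 1410.0 in PMA1e MKT1e, against 1652 and 1503 in MDS3e MKT1e and fell by 0.31 ± 0.09 (adjusted p = 0.032). That call was lost with a pseudocount of 1, in the fit of the 4 arrays alone, without PMA1e MKT1e replicate 1 and without either MDS3e MKT1e replicate. PHO8, the vacuolar phosphatase, read 356 and 372 in PMA1e MKT1e, against 611 and 589.9 in MDS3e MKT1e and fell by 0.70 ± 0.05. GIT1, a glycerophosphoinositol permease, read 8.27 and 11.6 in PMA1e MKT1e, against 14.3 and 15.7 in MDS3e MKT1e and fell by 0.26 ± 0.08, a call lost with a pseudocount of 64, without PMA1e MKT1e replicate 1 and without either MDS3e MKT1e replicate. PHO87, a low-affinity transporter, rose by 0.23 ± 0.07, a call lost without any 1 array of either strain. PHM7, a membrane protein also induced by stress, rose by 2.05 ± 0.09 and so moved, like PHO87, against the 8 members that fell. PHO84, PHO8, GIT1 and PHO87 were named after their values were seen.

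The polyphosphate genes followed the same direction, with 4 of 7 lower, none higher and a median of -0.29. VTC4, the catalytic subunit of the vacuolar polyphosphate polymerase, read 377 and 436 in PMA1e MKT1e, against 934 and 895 in MDS3e MKT1e and fell by 1.14 ± 0.08 (adjusted p = 8.1e-06). VTC3, a further subunit, read 289 and 354 in PMA1e MKT1e, against 902 and 923 in MDS3e MKT1e and fell by 1.47 ± 0.08, and VTC2, its alternative in the complex, fell by 1.11 ± 0.07. The subunit gene VTC1 differed by -0.24 and the polyphosphatase genes PPN1 and PPX1 by -0.07 and -0.03, and none of these passed. Of 12 phosphate signalling genes, 4 fell and none rose. PHO81, the inhibitor of the Pho80-Pho85 kinase and itself a target of Pho4, read 199 and 210.4 in PMA1e MKT1e, against 463 and 464 in MDS3e MKT1e and fell by 1.12 ± 0.05 (adjusted p = 4.2e-07). PHO86, needed for Pho84 to leave the endoplasmic reticulum, read 480.1 and 495 in PMA1e MKT1e, against 852 and 796 in MDS3e MKT1e and fell by 0.74 ± 0.05. KCS1 and VIP1, the kinases that make inositol pyrophosphates, fell by 0.42 and 0.40. The call of KCS1 was lost without PMA1e MKT1e replicate 2 and without MDS3e MKT1e replicate 1. The transcription factor gene PHO4 read 207 and 204 in PMA1e MKT1e, against 193 and 187 in MDS3e MKT1e and did not pass (difference 0.10 ± 0.05, adjusted p = 0.14). PHO80, PHO85 and PHO2 differed by -0.04, 0.02 and -0.14, also without passing. PHO80, PHO85, PHO2, VTC1, PPN1 and PPX1 stand here as the members that did not pass.

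General stress and stationary phase genes were mostly higher in PMA1e MKT1e. Of 59 such genes, 48 rose, none fell and 11 did not pass, with a median difference of 0.62. Leaving out 1 array gave between 42 and 48 higher members. TKL2, a minor transketolase of the pentose phosphate pathway, read 99.2 and 120.5 in PMA1e MKT1e, against 8.83 and 8.59 in MDS3e MKT1e and rose by 2.34 ± 0.09 (adjusted p = 2.0e-07), the largest rise of all genes. NQM1, a transaldolase of the same pathway, read 142 and 176 in PMA1e MKT1e, against 32.7 and 26 in MDS3e MKT1e and rose by 1.95 ± 0.14. GND2, a minor 6-phosphogluconate dehydrogenase, read 97.4 and 118 in PMA1e MKT1e, against 22.4 and 23.2 in MDS3e MKT1e and rose by 1.67 ± 0.10. In each of these 3 genes the lowest PMA1e MKT1e array read over 4 times the highest MDS3e MKT1e array. CTT1, the cytosolic catalase, read 382 and 451 in PMA1e MKT1e, against 105 and 97.4 in MDS3e MKT1e and rose by 1.88 ± 0.09 (adjusted p = 4.7e-07). HSP26, a small heat shock chaperone, read 590.1 and 791 in PMA1e MKT1e, against 237 and 195 in MDS3e MKT1e and rose by 1.6 ± 0.12. DDR2, a gene induced by many stresses, read 1566 and 1504 in PMA1e MKT1e, against 456 and 469 in MDS3e MKT1e and rose by 1.70 ± 0.08. SIP18 and GRE1 encode hydrophilins of drying and osmotic stress. SIP18 read 84.5 and 114 in PMA1e MKT1e, against 16.7 and 15.3 in MDS3e MKT1e and rose by 1.83 ± 0.13, and GRE1 read 44.6 and 56.7 in PMA1e MKT1e, against 14.3 and 12.4 in MDS3e MKT1e and rose by 1.18 ± 0.09. FMP45 and YNL194C, membrane proteins of the Sur7 family, rose by 1.93 ± 0.12 and 1.53 ± 0.07. FMP16, a mitochondrial protein of unknown function, read 413 and 407 in PMA1e MKT1e, against 82.7 and 71.1 in MDS3e MKT1e and rose by 2.20 ± 0.08. MSC1, RTC3 and the reticulon gene RTN2 rose by 1.51, 1.49 and 1.46.

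**Figure D2:**
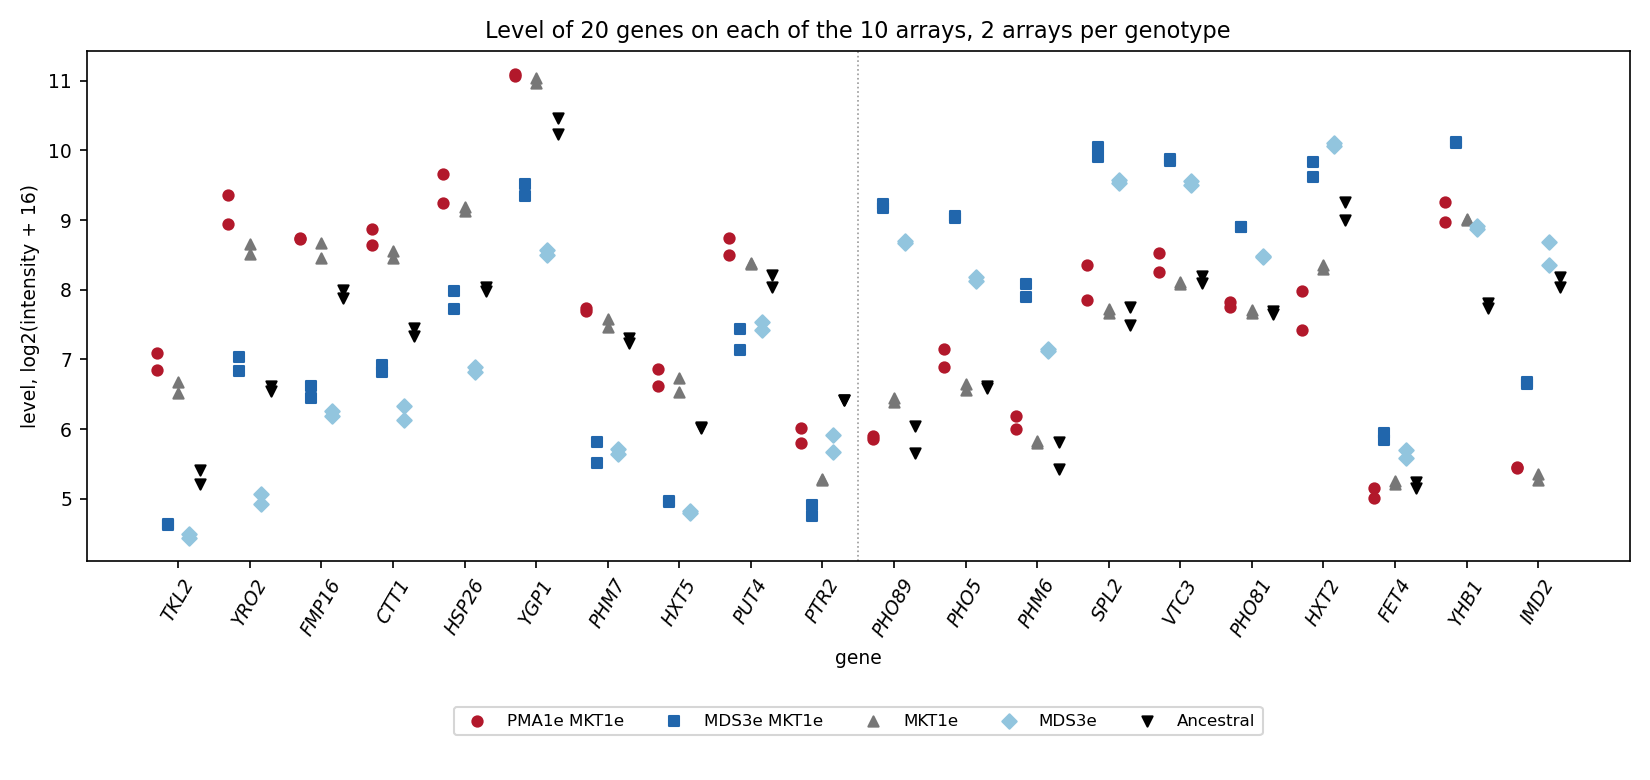
Level, log2(intensity + 16), of 20 genes (x axis) on each of the 10 arrays, coloured by genotype, with genes higher in PMA1e MKT1e left of the dotted line and genes lower in it right. In each gene the PMA1e MKT1e points do not overlap with the MDS3e MKT1e points, from PHO89 with a difference of -3.33 to TKL2 with 2.34. With 2 arrays per strain this also held for 3836 of all 5449 genes and for all 1709 called genes.

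The genes of the storage carbohydrates moved with them, since 17 of 26 trehalose and glycogen genes were higher and 1 was lower, with a median of 0.40. TSL1 and TPS2, subunits of the trehalose synthase complex, were both higher. TSL1 read 1053 and 1047 in PMA1e MKT1e, against 593 and 522 in MDS3e MKT1e and rose by 0.90 ± 0.07 (adjusted p = 1.2e-05), and TPS2 rose by 0.84 ± 0.06. GPH1, the glycogen phosphorylase, read 762 and 816 in PMA1e MKT1e, against 447 and 413 in MDS3e MKT1e and rose by 0.85 ± 0.06, and GDB1, the debranching enzyme, rose by 0.79 ± 0.08. Genes of synthesis and of breakdown thus rose side by side. GAC1, a regulatory subunit that directs a phosphatase to glycogen synthase, read 83.3 and 84.5 in PMA1e MKT1e, against 42.2 and 34 in MDS3e MKT1e and rose by 0.89 ± 0.09. PGM2, the main phosphoglucomutase, rose by 0.79 ± 0.06, while the minor isoform PGM1 fell by 0.21 ± 0.05, a call lost under cyclic loess and without replicate 2 of either strain. PGM1 was named after its values were seen.

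Of 13 genes of the weak acid response, 6 rose and none fell, with a median of 0.13. SPI1, a cell wall protein of weak acid resistance, read 792 and 798 in PMA1e MKT1e, against 292 and 206 in MDS3e MKT1e and rose by 1.63 ± 0.12. YGP1, a secreted glycoprotein, read 2172 and 2132 in PMA1e MKT1e, against 717 and 637 in MDS3e MKT1e and rose by 1.65 ± 0.08, and both are also members of the stress list. ATO2, a putative ammonium and acetate transporter, read 71.5 and 80.7 in PMA1e MKT1e, against 47.1 and 43 in MDS3e MKT1e and rose by 0.59 ± 0.07. HAA1, the transcription factor of the acetic acid response, rose by 0.23 ± 0.06, a call lost without either PMA1e MKT1e replicate and without MDS3e MKT1e replicate 2. The acid exporter genes PDR12 and TPO3 differed by 0.00 and -0.03 and did not pass.

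Among 29 antioxidant genes, 10 rose and 3 fell (median 0.09). TSA2, a peroxiredoxin of low expression, read 100.4 and 92.8 in PMA1e MKT1e, against 35.9 and 31.2 in MDS3e MKT1e and rose by 1.18 ± 0.07, and GPX1, a glutathione peroxidase, read 112 and 121 in PMA1e MKT1e, against 53.5 and 46.6 in MDS3e MKT1e and rose by 1.00 ± 0.10. SRX1, the sulfiredoxin, rose by 0.55 ± 0.07, while YAP1, the transcription factor of the oxidative response, fell by 0.41 ± 0.07. The falls were 1 without replicate 1 of either strain or MDS3e MKT1e replicate 2. Of 30 heat shock and folding genes, 11 rose and 3 fell (median 0.13). HSP42, a small chaperone, rose by 0.59 ± 0.09, and SSE2 and SSA4, stress-induced Hsp70 relatives, rose by 0.62 ± 0.07 and 0.44 ± 0.06. The count of 11 became 8 under quantile normalization and 7 under cyclic loess or without MDS3e MKT1e replicate 2 or either PMA1e MKT1e replicate, and the falls were 0 or 1 without those arrays. Of 27 Ras, protein kinase A and TOR genes, 8 rose and 1 fell (median 0.07). GPA2, the G protein subunit of glucose sensing, read 405 and 418 in PMA1e MKT1e, against 309 and 301 in MDS3e MKT1e and rose by 0.41 ± 0.05, and GPG1, a proposed partner of Gpa2 outside this list, read 214 and 304 in PMA1e MKT1e, against 86.5 and 64.6 in MDS3e MKT1e and rose by 1.58 ± 0.17. YAK1, a kinase restrained by protein kinase A, rose by 0.39 ± 0.07, and TPK2, a catalytic subunit of protein kinase A, rose by 0.33 ± 0.07. MSN2 and MSN4, whose products drive the stress genes, differed by 0.15 and -0.01 and did not pass. Without PMA1e MKT1e replicate 2 the list had 4 higher members, and without MDS3e MKT1e replicate 2 it had 5.

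Hexose transporters did not move as a block. Of 21 transporters and sensors, 3 rose (14.3%, against 15.3% of all genes) and 6 fell (28.6%, against 16.1%), with a median of -0.11. HXT2, a high-affinity glucose transporter, read 237 and 155 in PMA1e MKT1e, against 768 and 892 in MDS3e MKT1e and fell by 2.02 ± 0.15 (adjusted p = 9.5e-06). The MKT1e arrays read 299.9 and 312, between the strains. HXT5, a transporter of slow growth, read 101 and 82.8 in PMA1e MKT1e, against 15.4 and 15 in MDS3e MKT1e and rose by 1.78 ± 0.08 (adjusted p = 4.4e-07). HXT3, a low-affinity transporter, read 524 and 389 in PMA1e MKT1e, against 687 and 795 in MDS3e MKT1e and fell by 0.69 ± 0.13, and HXT4 fell by 0.43 ± 0.07. MIG2, a glucose-induced repressor, read 49.6 and 54.3 in PMA1e MKT1e, against 83.1 and 96 in MDS3e MKT1e and fell by 0.63 ± 0.08. HXT1, another low-affinity transporter, fell by 0.52 ± 0.16, a call lost with a pseudocount of 1 and without replicate 2 of either strain. The rises were 1 without MDS3e MKT1e replicate 1 or PMA1e MKT1e replicate 2. The glucose sensor genes SNF3 and RGT2 differed by 0.01 and -0.14 and did not pass.

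Of 26 glycolysis and fermentation genes, 15 rose and 1 fell, with a median of 0.26. GLK1, the glucokinase, read 1626 and 1634 in PMA1e MKT1e, against 1088 and 1040.3 in MDS3e MKT1e and rose by 0.61 ± 0.09 (adjusted p = 0.0011), and ALD4, a mitochondrial aldehyde dehydrogenase, read 1398 and 1380.3 in PMA1e MKT1e, against 988 and 908 in MDS3e MKT1e and rose by 0.54 ± 0.07. PGK1, GPM1 and ENO1, very bright genes of lower glycolysis, rose by 0.49, 0.43 and 0.43, and each lost its call under quantile normalization. Of the list, 20 members lay in the brightest 10% of genes. With that scaling 3 members of the list were higher (median 0.07), with cyclic loess 9, and 7 without PMA1e MKT1e replicate 1 or MDS3e MKT1e replicate 2. In the glyoxylate cycle and acetate list 9 of 20 genes rose and none fell (median 0.12). MDH2, the cytosolic malate dehydrogenase, read 620.3 and 624 in PMA1e MKT1e, against 405 and 366 in MDS3e MKT1e and rose by 0.67 ± 0.07, and MLS1, malate synthase, read 16.4 and 16.3 in PMA1e MKT1e, against 7.28 and 8.12 in MDS3e MKT1e and rose by 0.45 ± 0.06. The count was 3 without MDS3e MKT1e replicate 2 and 4 without PMA1e MKT1e replicate 2. In the respiratory chain 15 of 39 genes rose (38.5%) and none fell (median 0.14, and 0.03 under quantile normalization). Of this list 34 members lay in the brightest 10% of genes, as did 12 of 18 tricarboxylic acid cycle genes. In that brightest group 211 of 545 genes rose, with a median of 0.14, so these lists cannot be told apart from the shift with brightness. NDE2, an external NADH dehydrogenase, read 50.8 and 48.3 in PMA1e MKT1e, against 17.8 and 17.1 in MDS3e MKT1e and rose by 0.97 ± 0.06 (adjusted p = 1.9e-06). COX5B, the oxidase subunit used at low oxygen, rose by 0.55 ± 0.08, and ATP1, a subunit of the ATP synthase, by 0.47 ± 0.06. The count was 9 without MDS3e MKT1e replicate 2 and 8 without PMA1e MKT1e replicate 2. In the tricarboxylic acid cycle 4 of 18 genes rose, and 0 without PMA1e MKT1e replicate 2 and 1 without MDS3e MKT1e replicate 2.

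Of 22 genes under heme and oxygen control, 7 rose and 5 fell (median 0.01). YHB1, the flavohemoglobin that removes nitric oxide, read 487 and 595 in PMA1e MKT1e, against 1081 and 1098 in MDS3e MKT1e and fell by 1.00 ± 0.08 (adjusted p = 1.5e-05). The MKT1e arrays read 500.1 and 498, level with PMA1e MKT1e. AAC1, the aerobic isoform of the mitochondrial ADP/ATP carrier, read 294 and 299.7 in PMA1e MKT1e, against 175 and 163 in MDS3e MKT1e and rose by 0.76 ± 0.06, while AAC3, the isoform used without oxygen, read 26.5 and 22.4 in PMA1e MKT1e, against 41.6 and 36.4 in MDS3e MKT1e and fell by 0.44 ± 0.09. CYB2, the lactate dehydrogenase of respiring cells, read 172 and 182 in PMA1e MKT1e, against 115 and 107 in MDS3e MKT1e and rose by 0.60 ± 0.06. The 5 falls became 2 without either PMA1e MKT1e replicate and 3 without MDS3e MKT1e replicate 1.

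Genes of ribosome assembly were lower in PMA1e MKT1e. Of 64 genes of the small subunit processome, 40 fell and none rose, with a median of -0.29. Of 68 large subunit assembly factors, 47 fell and none rose, with a median of -0.31. The changes were modest in size, and the largest belonged to NOP13 and FAF1. NOP13, a nucleolar protein, read 226 and 207 in PMA1e MKT1e, against 354 and 377 in MDS3e MKT1e and fell by 0.72 ± 0.11 (adjusted p = 9.6e-04). FAF1, a factor of small subunit maturation, read 62.5 and 60.7 in PMA1e MKT1e, against 96.2 and 120.1 in MDS3e MKT1e and fell by 0.67 ± 0.11. RRP15, required for the large subunit precursors, read 229.6 and 244 in PMA1e MKT1e, against 359.8 and 397 in MDS3e MKT1e and fell by 0.64 ± 0.09. KRR1, UTP4 and UTP7, processome components, fell by 0.54, 0.52 and 0.51, and MAK11 by 0.56. The medians stayed between -0.34 and -0.23 for the processome and between -0.32 and -0.24 for the assembly factors in all alternatives, but the counts depended on single arrays. The processome count was 18 without PMA1e MKT1e replicate 2, 25 without PMA1e MKT1e replicate 1 and 20 without MDS3e MKT1e replicate 2. The assembly count was 15, 25 and 19 without those arrays and 31 without MDS3e MKT1e replicate 1. Of 30 genes of RNA polymerases I and III, which make ribosomal and transfer RNA, 10 fell and 1 rose (median -0.17), and 6 fell without PMA1e MKT1e replicate 2. RPC40, a subunit shared by both enzymes, read 409 and 483 in PMA1e MKT1e, against 716 and 651 in MDS3e MKT1e and fell by 0.60 ± 0.09, and RPC17, a subunit of polymerase III, fell by 0.61 ± 0.10. MAF1, the repressor of polymerase III, was the member that rose, by 0.18 ± 0.05, a call lost without either PMA1e MKT1e replicate and without MDS3e MKT1e replicate 2.

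**Figure D3:**
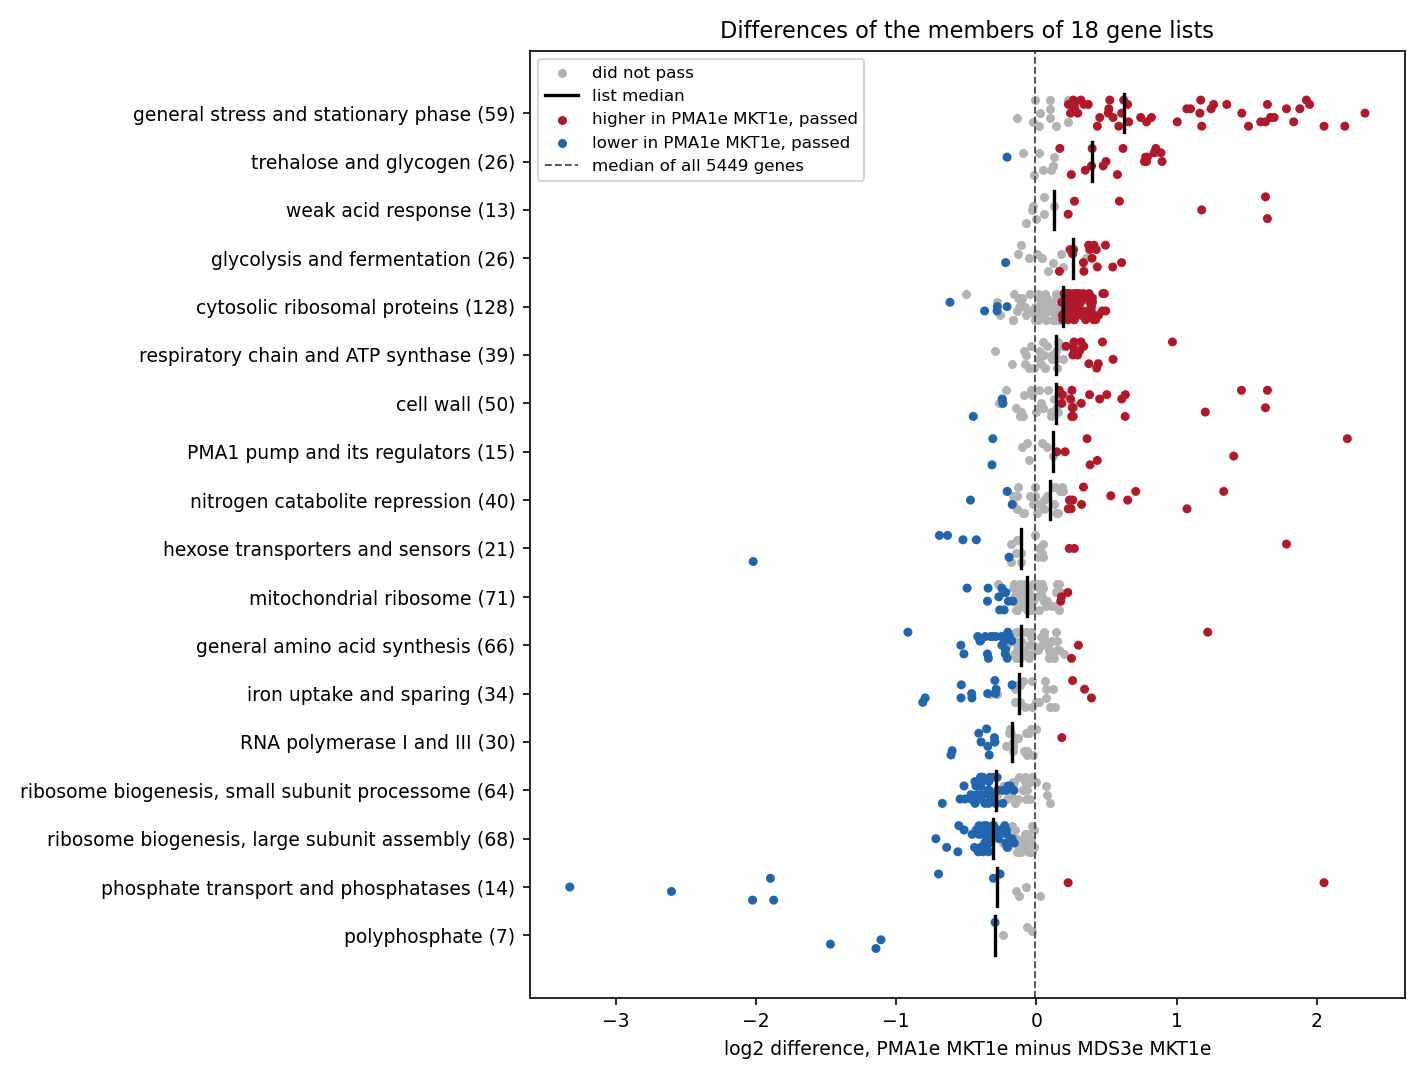
Log2 difference, PMA1e MKT1e minus MDS3e MKT1e (x axis), of each measured member of 18 gene lists (rows, number of members in brackets), with a black bar at the list median and a dashed line at the median of all genes, -0.01. The medians run from 0.62 for the stress genes to -0.31 for the large subunit assembly factors.

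Cytosolic ribosomal protein genes had a direction that depended on the scaling of the arrays. Of 128 members, 62 rose and 5 fell as deposited, with a median of 0.19. Under quantile normalization 7 rose and 18 fell with a median of -0.04, and under cyclic loess 15 rose and 17 fell with a median of 0.00. Of these members, 124 lay in the brightest 10% of genes, whose median over all its genes was 0.14. The number of rises was 24 without MDS3e MKT1e replicate 2, 25 without PMA1e MKT1e replicate 1 and 37 without PMA1e MKT1e replicate 2. RPP0, a stalk protein of the large subunit, read 2413 and 2399 in PMA1e MKT1e, against 1751 and 1679 in MDS3e MKT1e and rose by 0.48 ± 0.08, and it kept its call under both scalings. Probe sets of paralogous ribosomal protein genes can read each other. Of 71 mitochondrial ribosomal protein genes, 3 rose and 11 fell (median -0.07), and the share that fell, 15.5%, was near the 16.1% of all genes. MRP21, with the largest fall of these, read 292 and 274 in PMA1e MKT1e, against 379.8 and 431 in MDS3e MKT1e and fell by 0.49 ± 0.10. The falls were 2 without MDS3e MKT1e replicate 1 or PMA1e MKT1e replicate 1, 3 without PMA1e MKT1e replicate 2 and 6 without MDS3e MKT1e replicate 2, and the rises were 0 or 1 without each of these arrays.

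Nitrogen genes changed at single transporters and enzymes. Of 40 genes under nitrogen catabolite repression, 12 rose and 3 fell (median 0.10), and 7 rose without either PMA1e MKT1e replicate, while 1 fell without PMA1e MKT1e replicate 2 or either MDS3e replicate. PUT4, the proline permease, read 347 and 411 in PMA1e MKT1e, against 157 and 125 in MDS3e MKT1e and rose by 1.34 ± 0.11 (adjusted p = 1.3e-05). PTR2, the di- and tripeptide transporter, read 39.7 and 48.5 in PMA1e MKT1e, against 14 and 11 in MDS3e MKT1e and rose by 1.07 ± 0.09 (adjusted p = 2.6e-05). DAL4, the allantoin permease, read 30.7 and 41.1 in PMA1e MKT1e, against 15.7 and 15.5 in MDS3e MKT1e and rose by 0.71 ± 0.09. In PTR2 and DAL4 the MKT1e arrays lay between the strains, at 22.4 and 22.9 for PTR2 and at 20.9 and 24.4 for DAL4. CAR2, the ornithine aminotransferase of arginine breakdown, read 187 and 223 in PMA1e MKT1e, against 126 and 122 in MDS3e MKT1e and rose by 0.65 ± 0.11. Of 29 amino acid and peptide transporter genes, 6 rose (20.7%) and 6 fell (20.7%), with a median of 0.05. MUP1, a high-affinity methionine permease, read 63.4 and 56.1 in PMA1e MKT1e, against 94.7 and 89.3 in MDS3e MKT1e and fell by 0.51 ± 0.07. GNP1, a glutamine permease, read 109.7 and 59.7 in PMA1e MKT1e, against 134 and 159 in MDS3e MKT1e and fell by 0.73 ± 0.18 (adjusted p = 0.012), a call lost without MDS3e MKT1e replicate 2. The falls were 2 without that array and 3 without PMA1e MKT1e replicate 2. The MKT1e arrays read 155 and 155 for GNP1, close to MDS3e MKT1e rather than to PMA1e MKT1e.

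Of 66 amino acid synthesis genes, 3 rose and 21 fell (median -0.11), and 12 fell without replicate 2 of either strain. The rises were 1 under quantile normalization, cyclic loess and without PMA1e MKT1e replicate 1 or MDS3e MKT1e replicate 2, and 5 in the fit of the 4 arrays alone and without either Ancestral replicate. AGX1, which makes glycine from glyoxylate, moved against the list. It read 264 and 358 in PMA1e MKT1e, against 132 and 114 in MDS3e MKT1e and rose by 1.22 ± 0.12 (adjusted p = 5.0e-05). ARO9, an aromatic aminotransferase, read 22.1 and 24 in PMA1e MKT1e, against 51.7 and 64 in MDS3e MKT1e and fell by 0.92 ± 0.09 (adjusted p = 5.6e-05). BAT1, the mitochondrial branched-chain aminotransferase, read 898 and 845 in PMA1e MKT1e, against 1311 and 1234 in MDS3e MKT1e and fell by 0.54 ± 0.06. The MKT1e arrays read 1243 and 1313 for BAT1, so PMA1e MKT1e was the strain apart. LYS21, a homocitrate synthase of lysine synthesis, and ASN2, an asparagine synthetase, fell by 0.52 ± 0.09 and 0.40 ± 0.05. Of 28 sulfate and methionine genes, 4 rose (14.3%) and 7 fell (25%), with a median of 0.01. SUL1, a sulfate permease, read 630.1 and 593 in PMA1e MKT1e, against 967 and 1014 in MDS3e MKT1e and fell by 0.68 ± 0.07. The rises were 0 without either PMA1e MKT1e replicate or without MDS3e MKT1e replicate 2 and 2 without MDS3e MKT1e replicate 1, and the falls were 4 without replicate 2 of either strain. Of 38 purine and pyrimidine genes, 5 rose (13.2%) and 8 fell (21.1%), with a median of -0.08. IMD2, an IMP dehydrogenase of guanine nucleotide synthesis whose probe set may read related genes, had 28 and 27.6 in PMA1e MKT1e, against 84.1 and 86.6 in MDS3e MKT1e and fell by 1.21 ± 0.10 (adjusted p = 1.3e-05). The MKT1e arrays read 22.5 and 25.1 for IMD2, level with PMA1e MKT1e. The rises were 2 or 3 and the falls 2 to 5 without 1 array of either strain, and 5 fell without either MDS3e replicate. URA10, a minor enzyme of pyrimidine synthesis, rose by 0.46 ± 0.06.

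Of 34 genes of iron uptake and sparing, 3 rose and 11 fell (median -0.13), and 6 fell without PMA1e MKT1e replicate 1. FET3 and FTR1 form the high-affinity uptake system. FET3, its ferroxidase, read 338 and 378 in PMA1e MKT1e, against 633 and 629 in MDS3e MKT1e and fell by 0.79 ± 0.08 (adjusted p = 4.5e-05), and FTR1, its permease, read 338 and 341 in PMA1e MKT1e, against 453 and 495 in MDS3e MKT1e and fell by 0.46 ± 0.08. FET4, a low-affinity transporter, read 19.7 and 16.4 in PMA1e MKT1e, against 45.7 and 41.7 in MDS3e MKT1e and fell by 0.81 ± 0.07. TIS11, which triggers decay of iron-using messages, read 20.5 and 22.6 in PMA1e MKT1e, against 39.5 and 37.4 in MDS3e MKT1e and fell by 0.54 ± 0.09, and ATX1, the copper chaperone of the pathway, fell by 0.46 ± 0.09. HMX1, a heme oxygenase, rose by 0.39 ± 0.08 and SMF1, a manganese transporter, by 0.34 ± 0.06.

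Of 50 cell wall genes, 20 rose and 3 fell, with a median of 0.14. Beside SPI1 and YGP1, the largest rises were in PIR3 and NCA3. PIR3, a wall protein bound to glucan, read 118 and 145 in PMA1e MKT1e, against 38 and 36.6 in MDS3e MKT1e and rose by 1.46 ± 0.08 (adjusted p = 1.1e-06). NCA3, of the SUN family, read 37.7 and 32.8 in PMA1e MKT1e, against 7.61 and 4.91 in MDS3e MKT1e and rose by 1.2 ± 0.09. CWP1 and TIP1, mannoproteins anchored in the wall, rose by 0.64 ± 0.06 and 0.63 ± 0.09. The 20 rises became 11 under quantile normalization and 13 under cyclic loess, 10 without MDS3e MKT1e replicate 2 and 11 without PMA1e MKT1e replicate 2. Of 30 fatty acid and phospholipid genes, 5 rose and 7 fell (median 0.02), and without 1 array of either strain 1 to 4 rose and 2 to 4 fell. In the main fit the rises were 16.7% of the list and the falls 23.3%. EEB1, which makes ethyl esters of fatty acids, had the largest fall of the list. It read 218 and 277 in PMA1e MKT1e, against 740.2 and 564 in MDS3e MKT1e and fell by 1.34 ± 0.12 (adjusted p = 3.4e-05). Of 20 pleiotropic drug resistance genes, 8 rose and 2 fell (median 0.10), and without 1 array of either strain between 2 and 4 rose. PDR15, a membrane ABC transporter, rose by 0.63 ± 0.08, and RSB1, linked to export of sphingoid bases, read 28.9 and 24.6 in PMA1e MKT1e, against 54 and 45.7 in MDS3e MKT1e and fell by 0.62 ± 0.08.

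Where each strain stood relative to MKT1e, the allele both share, was read from the same 2 MKT1e arrays, so these values are not independent of each other. Over the 1709 called genes the median absolute difference from MKT1e was 0.07 in PMA1e MKT1e and 0.26 in MDS3e MKT1e. Over all genes it was 0.06 and 0.12. The stress list had a median of 0.13 in PMA1e MKT1e and -0.52 in MDS3e MKT1e relative to MKT1e, and the trehalose and glycogen list 0.11 and -0.31. The phosphate transporter and phosphatase list had medians of 0.10 and 0.48, and the polyphosphate list 0.08 and 0.41. The processome list had -0.08 and 0.21, and the large subunit assembly list -0.07 and 0.20. All genes had 0.02 and 0.03. In these lists the larger distance from MKT1e was that of MDS3e MKT1e. Some other lists went the other way. The nitrogen catabolite repression list had medians of 0.09 in PMA1e MKT1e and 0.02 in MDS3e MKT1e relative to MKT1e. The autophagy list had 0.11 and -0.01, and the peroxisomal list 0.06 and 0.00. Array correlations across genes lay between 0.9966 and 0.9977 for PMA1e MKT1e with MKT1e and between 0.9846 and 0.9886 for MDS3e MKT1e with MKT1e, as a description of 4 array pairs each. Single genes followed either pattern. PHO89, PHO11 and YRO2 were farther from MKT1e in MDS3e MKT1e. PHO89 read 42.3 and 43.5 in PMA1e MKT1e, against 563 and 587 in MDS3e MKT1e and 71.2 and 67.6 in MKT1e, and PHO11 read 179.7 and 145 in MKT1e. YRO2 read 386 and 349.6 in MKT1e, below both PMA1e MKT1e arrays and above both MDS3e MKT1e arrays. GNP1, BAT1, PTR2 and DAL4 were farther from MKT1e in PMA1e MKT1e, with differences of -0.81, -0.54, 0.63 and 0.42, than in MDS3e MKT1e, with -0.08, -0.01, -0.44 and -0.29.

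**Figure D4:**
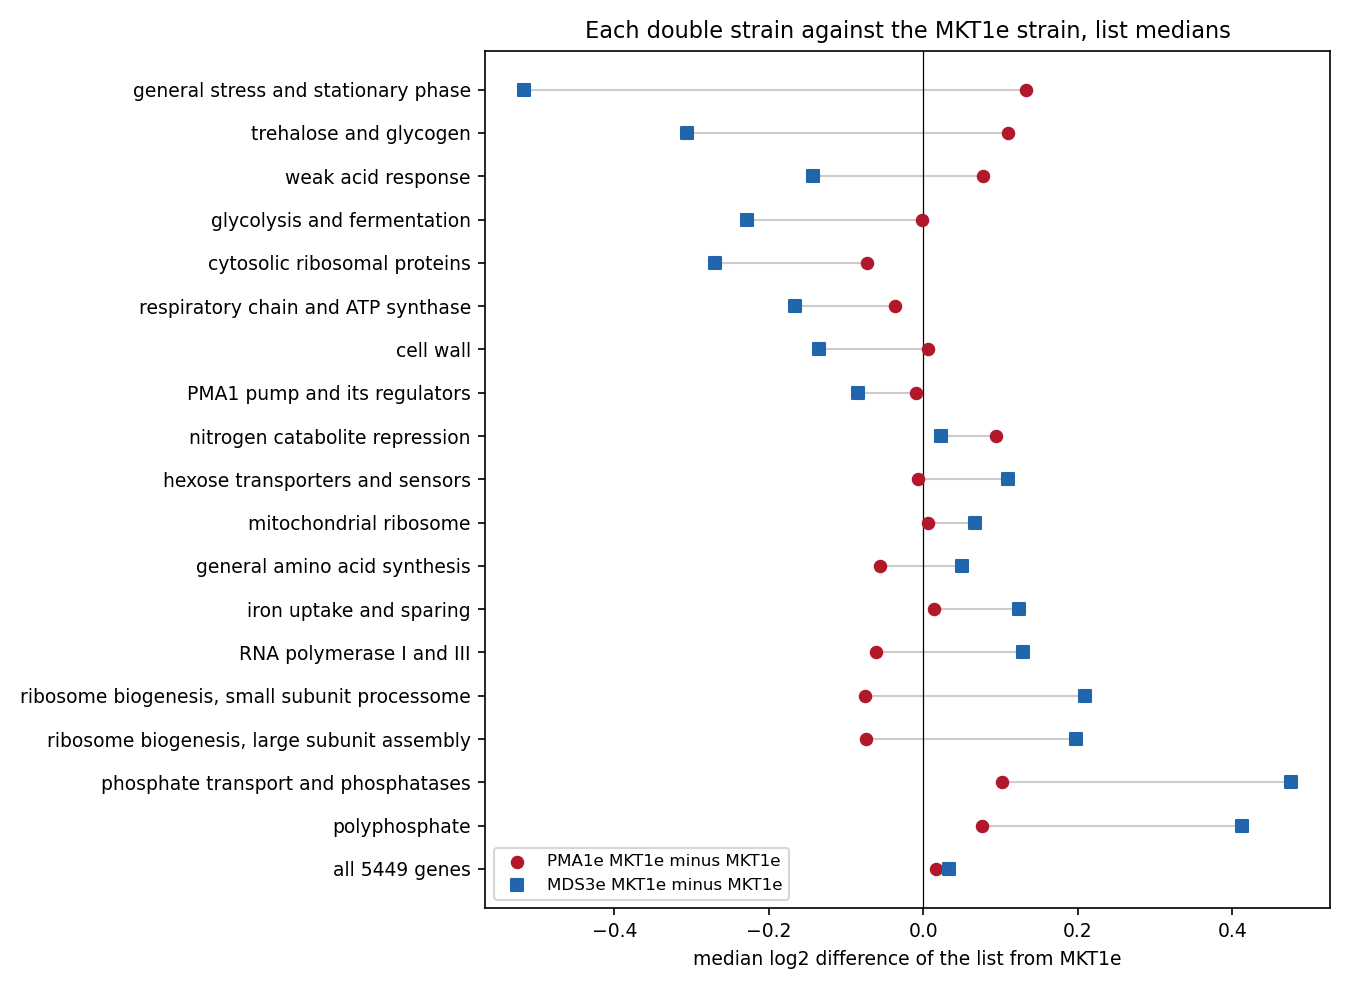
Median log2 difference from MKT1e (x axis) of 18 gene lists and of all genes (rows), in PMA1e MKT1e (circles) and in MDS3e MKT1e (squares), both measured against the same 2 MKT1e arrays. The stress list lies at 0.13 and -0.52 and the phosphate transporter list at 0.10 and 0.48.

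A run of neighbouring genes on chromosome III differed together. In windows of 7 neighbouring measured genes, the largest median difference of 5353 windows was 0.78 and lay there, against 0.45 for the largest window elsewhere and -0.36 for the lowest. The run was picked after its values were seen and therefore gets no test of its own. It reaches from MAK32 to RHB1 and holds 11 measured genes, of which 9 were higher in PMA1e MKT1e, by 0.60 to 1.41, with a median of 0.76. HSP30, described above with the pump's regulators, is among them and had the largest rise. PET18 read 165 and 169 in PMA1e MKT1e, against 72.7 and 73.9 in MDS3e MKT1e and rose by 1.04 ± 0.05 (adjusted p = 4.7e-07). SLM5, a mitochondrial asparaginyl-tRNA synthetase, read 286 and 284 in PMA1e MKT1e, against 156 and 148 in MDS3e MKT1e and rose by 0.84 ± 0.05. RHB1, a small GTPase, read 202 and 213 in PMA1e MKT1e, against 113 and 119.7 in MDS3e MKT1e and rose by 0.76 ± 0.07. MAK32, MAK31, YCR023C, YCR024C-B and NPP1 rose by 0.65, 0.62, 0.78, 0.60 and 0.79. HTL1, inside the run, read 51.2 and 53.1 in PMA1e MKT1e, against 47.5 and 53.3 in MDS3e MKT1e. PMP1, also inside it, read 1450.5 and 1582 in PMA1e MKT1e, against 1434 and 1507 in MDS3e MKT1e. Neither passed, with differences of 0.04 ± 0.19 for HTL1 and 0.04 ± 0.07 for PMP1. The large SE of HTL1 leaves its difference imprecise. Just outside it, FEN2 differed by -0.09 without passing, SRD1 rose by 0.32 ± 0.09 and CWH43 fell by 0.26 ± 0.06. CWH43 lost its call without replicate 1 of either strain, and SRD1 lost it without those arrays and without MDS3e MKT1e replicate 2. SYP1, beyond FEN2 and RIM1, read 234 and 237 in PMA1e MKT1e, against 179 and 151 in MDS3e MKT1e and rose by 0.48 ± 0.09 (adjusted p = 0.0042), a call kept under all alternatives. Relative to MKT1e the run had a median of 0.00 in PMA1e MKT1e and -0.71 in MDS3e MKT1e, and in MDS3e relative to Ancestral it was 0.01. That median covers unequal genes, since HSP30 and YCR024C-B had differences of -0.37 and -0.43 for MDS3e minus Ancestral. In each of the 9 higher genes MDS3e MKT1e had the lowest mean of the 5 genotypes. SLM5 was nearly as low in MDS3e, at 161 and 160.4, and in Ancestral, at 167 and 158, while MKT1e read 294 and 282, close to PMA1e MKT1e. The cause of these patterns was not tested.

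**Figure D5:**
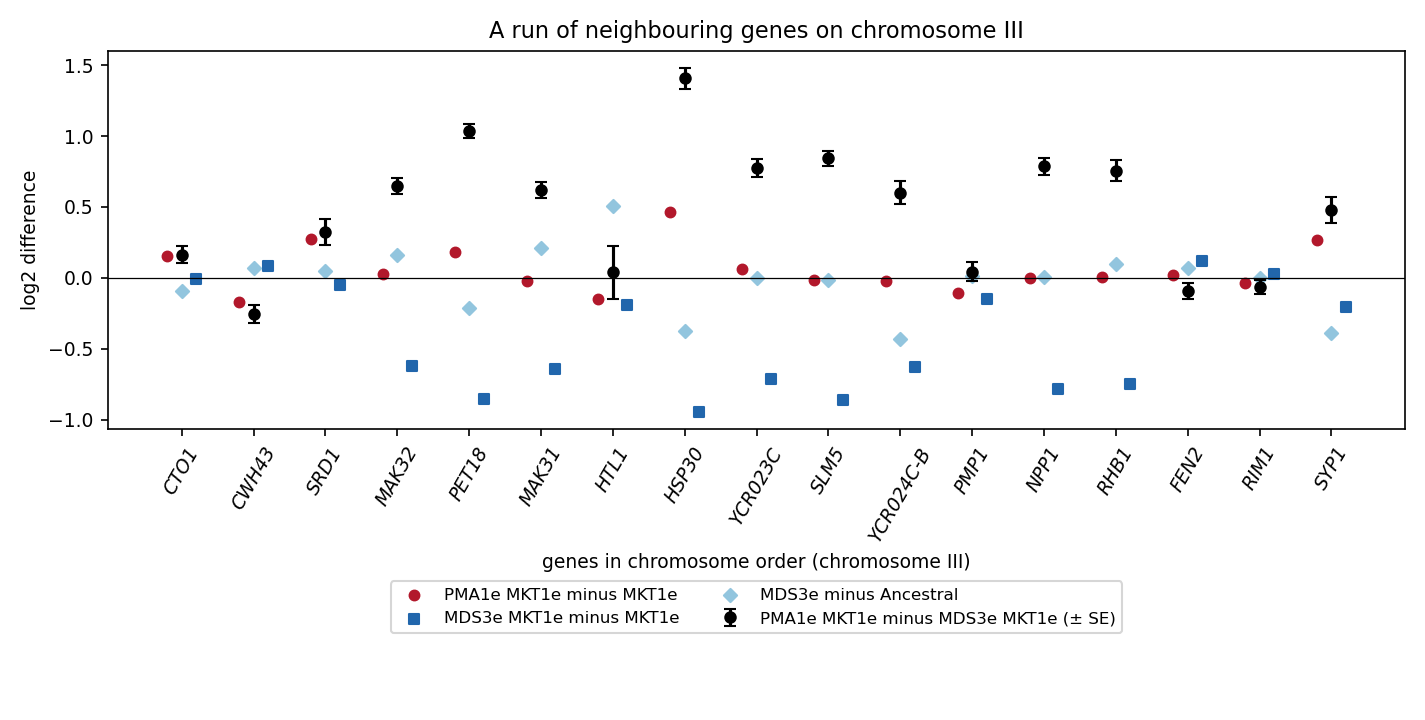
Log2 difference (y axis) of 17 neighbouring genes in chromosome order (x axis), with PMA1e MKT1e minus MDS3e MKT1e as black points (bars are SE) beside each strain minus MKT1e and MDS3e minus Ancestral. The 9 higher genes of the run lie between 0.60 and 1.41, the MDS3e MKT1e minus MKT1e squares of the same genes lie near -0.71, and those of HTL1 and PMP1 do not.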

How the data were processed

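Total RNA of 10 yeast cultures was read on Affymetrix arrays, and the authors made the deposited intensity values with Affymetrix Expression Console, per the submitters' processing notes. Its version, algorithm and scaling were not given in the sources used here. Values were deposited for 10928 probe sets on a linear scale, from 0.00517 to 3479, and all 10 columns were used. By the platform annotation, 7244 probe sets named 1 gene and 5498 of these an S. cerevisiae gene, with current names from the R64 annotation. The brightest probe set stood for each of 47 genes that had more than 1, which left 5449 genes, of which 114 had probe sets that may read related genes.

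From the deposited intensity, log2 of the value plus 16 was computed here, so the log2 values are not the authors'. A linear model with a mean for each genotype was fitted over all 10 arrays with limma 3.58.1 (R 4.3.3), leaving 5 residual degrees of freedom, and tested PMA1e MKT1e minus MDS3e MKT1e at a Benjamini-Hochberg adjusted p under 0.05. The spread is thus shared with arrays that were not compared. The same steps were tested on simulated data. Gene lists were described by the number of members that passed in each direction and by their median.

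The comparison, the lists and the alternatives were chosen with earlier results of these data known. Genes were named by a rule, which took PMA1, MDS3 and MKT1, the 20 largest rises and falls among genes whose arrays did not overlap, and up to 6 changed members of each list. Genes named outside this rule, chiefly members of the pump, phosphate and chromosome III groups, were chosen after their values were seen. Alternatives were 3 scalings, other pseudocounts, a background filter, other choices of probe sets, other variance models, fewer samples, a stricter threshold and a replicate block. Correlations of deviations between same-numbered arrays ran from -0.20 to 0.39 over 10 pairs of genotypes. They were negative for MDS3e MKT1e with every other genotype, from -0.20 to -0.14. Among MKT1e, MDS3e and Ancestral they were positive, from 0.19 to 0.39. As the signs differed, the replicate numbers were not taken to pair the cultures. A block with the numbers exchanged in MDS3e MKT1e was fitted as an alternative. No guide, promoter or protein sequence was used here.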

Additional observations from a re-analysis of the deposited data

How the results depend on the processing

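The count of 1709 called genes lay between 1512 and 1862 under median centring, quantile normalization, cyclic loess, other pseudocounts, the background filter, other choices of probe sets, other variance models and a fit of the 4 arrays alone. Median centring gave 929 higher and 738 lower genes and moved the median of all genes to 0.02. An adjusted p under 0.01 left 832 genes, 446 higher and 386 lower. Leaving out each of the 10 arrays in turn gave 801 to 1943 called genes, 444 to 914 higher and 357 to 1029 lower. The lowest counts came without PMA1e MKT1e replicate 2 and the highest without either Ancestral replicate. With the replicate number as a block 1716 genes were called, 827 higher and 889 lower, and with the numbers exchanged in MDS3e MKT1e, an alternative chosen after seeing the data, 1958 were called, 920 higher and 1038 lower. Of 253 named genes that passed, 160 kept the call under all alternatives, 93 lost it at least once, and 0 changed sign. The medians of the cytosolic ribosomal protein genes turned from 0.19 to -0.04 under quantile normalization, as given with that list. The median SE of a difference was 0.07 with 2 arrays per genotype, and a pseudocount of 16 compresses differences of genes near the background limit.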

Other observations

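Mating, meiosis and cell cycle genes differed at single members. None of these 3 lists exceeded the shares of all genes, 15.3% higher and 16.1% lower. Of 29 pheromone response genes, 4 rose (13.8%) and 3 fell (10.3%) in PMA1e MKT1e (median 0.02). PRM2, a membrane protein induced by pheromone, read 63 and 47.8 in PMA1e MKT1e, against 21.2 and 20.2 in MDS3e MKT1e and rose by 0.95 ± 0.08, and FIG2, an adhesin of mating cells, rose by 0.31 ± 0.06. Without MDS3e MKT1e replicate 2 there were 2 rises and 1 fall, and without PMA1e MKT1e replicate 2 there were 0 falls. Of 25 genes of entry into meiosis, 2 rose (8%) and 1 fell (4%), with a median of 0.05. RIM4, an RNA-binding regulator of meiosis, read 121 and 123 in PMA1e MKT1e, against 86.8 and 75.3 in MDS3e MKT1e and rose by 0.51 ± 0.06, and IME1, the master regulator, read 21.7 and 23 in PMA1e MKT1e, against 31.7 and 30.6 in MDS3e MKT1e and fell by 0.30 ± 0.06. Of 24 cyclin and cell cycle genes, 3 rose (12.5%) and none fell (median 0.02). CLB6, a cyclin of early S phase, read 186 and 186 in PMA1e MKT1e, against 145 and 137 in MDS3e MKT1e and rose by 0.36 ± 0.07, and RNR3, the damage-induced ribonucleotide reductase subunit, read 42.8 and 45 in PMA1e MKT1e, against 26.7 and 25.7 in MDS3e MKT1e and rose by 0.50 ± 0.06. Of 13 genes of MDS3 and the Rim101 pathway, 2 rose and none fell (median -0.01). The share that rose, 15.4%, was near the 15.3% of all genes. RIM8, of this pathway, read 112 and 128 in PMA1e MKT1e, against 107 and 94.1 in MDS3e MKT1e. Its call was lost under 12 of 23 alternatives. Among these were a pseudocount of 1 or 64, the fit of the 4 arrays alone, the replicate block and trended variances. The stricter threshold and the removal of several single arrays also lost it. NRG1, a repressor under Rim101 control, read 174 and 176 in PMA1e MKT1e, against 136 and 123 in MDS3e MKT1e and rose by 0.39 ± 0.07, while RIM101 itself and the MDS3 paralog PMD1 differed by 0.10 and 0.14 and did not pass. Of MKT1 and 5 partner or target genes, 2 fell and none rose (median -0.17). PBP1 differed by -0.11 without passing and PUF3, a regulator of mitochondrial messages, fell by 0.36 ± 0.10, a call lost without either PMA1e MKT1e replicate and without MDS3e MKT1e replicate 1. LSM12, which binds Pbp1, fell by 0.26 ± 0.07, a call lost without either PMA1e MKT1e replicate and without MDS3e MKT1e replicate 2.

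Of 36 proteasome genes, 2 rose and 10 fell (median -0.08), and 5 or 6 fell without any 1 array of either strain. RPT5, an ATPase of the base, read 419 and 421 in PMA1e MKT1e, against 538 and 529 in MDS3e MKT1e and fell by 0.33 ± 0.05, and RPN6, a lid subunit, fell by 0.26 ± 0.05. Of 26 autophagy genes, 8 rose and 2 fell (median 0.13), and 5 rose without either PMA1e MKT1e replicate. ATG33, needed for turnover of mitochondria, read 289 and 319 in PMA1e MKT1e, against 209 and 199 in MDS3e MKT1e and rose by 0.54 ± 0.07. ATG40, a receptor for turnover of the endoplasmic reticulum, read 174 and 172 in PMA1e MKT1e, against 127 and 122 in MDS3e MKT1e and rose by 0.43 ± 0.07. Of 18 genes of the vacuolar proton pump, 3 rose and 1 fell (median 0.02), and 1 rose without PMA1e MKT1e replicate 1 or MDS3e MKT1e replicate 2. In the main fit the rises were 16.7% of the list, near the 15.3% of all genes. VMA3, a subunit of the membrane ring of this pump, read 1889 and 1863 in PMA1e MKT1e, against 1463 and 1448 in MDS3e MKT1e and rose by 0.36 ± 0.07. Of 17 peroxisomal genes, 5 rose and none fell (median 0.10), and 3 rose without replicate 2 of either strain. POT1, the last enzyme of fatty acid oxidation, read 15.7 and 14.7 in PMA1e MKT1e, against 5.79 and 7.80 in MDS3e MKT1e and rose by 0.45 ± 0.09, and POX1, the first, read 11.7 and 12.5 in PMA1e MKT1e, against 5.43 and 6.89 in MDS3e MKT1e and rose by 0.34 ± 0.06. The Ty element probe set YDR261C-D, which may read many copies, had 199 and 185 in PMA1e MKT1e, against 393 and 411 in MDS3e MKT1e and fell by 1.01 ± 0.30, a call lost without any 1 array of either strain, with a pseudocount of 1 and with trended variances.

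Of 9 histone genes, 4 rose and none fell (median 0.20), but 1 rose and 1 fell under quantile normalization, 0 rose and 1 fell under cyclic loess, and 1 rose without PMA1e MKT1e replicate 1 and 2 without MDS3e MKT1e replicate 1. Of 28 ergosterol genes, 3 rose and 2 fell (median -0.02), and HMG2, an HMG-CoA reductase, rose by 0.25 ± 0.05. There were 1 rise and 1 fall without replicate 1 of either strain, 1 rise without PMA1e MKT1e replicate 2 and under quantile normalization, and 1 fall without MDS3e MKT1e replicate 2 and with a pseudocount of 1. With a pseudocount of 64 there were 4 falls. Of 18 cation transport genes, 1 rose and 3 fell (median 0.01), with 0 of either kind without PMA1e MKT1e replicate 2. Of 13 zinc, copper and manganese genes and of 16 daughter-specific and cell separation genes, 2 each rose and none fell (medians 0.10 and 0.04), and the daughter-specific rises were 0 without any 1 array of either strain. The falls were 16.7% of the cation list, near the 16.1% of all genes. The rises were 15.4% of the zinc, copper and manganese list and 12.5% of the daughter-specific list, against 15.3% of all genes. Of 6 genes specific to a cells 1 rose, of 4 specific to alpha cells none passed, and of 7 haploid-specific genes 1 rose and 1 fell.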
